A study of Mus musculus with 7 samples.

Results

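Glycolysis and the response to low oxygen were followed through 34 genes, listed by name with earlier results of these data known. They comprised 16 glycolytic enzymes, 3 regulators of glycolytic flux, 4 glucose and lactate transporters, 2 HIF alpha subunits and 9 further targets of the hypoxia pathway. Each gene was read from its brightest probe. All 34 were among the 17178 named genes of the array, and all 34 passed the background filter and were among the 13339 genes tested. Because the filter asked only for detection on at least 3 of the 7 arrays, a gene did not have to differ between the groups to pass it. No member was called higher or lower in the arrays labelled Otx2 cKO, against 28 of 13339 genes (0.21%) called over the whole array (limma, Benjamini-Hochberg adjusted p under 0.05). The members' differences lay between -0.28 and 0.50 on the log2 scale.

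Glycolysis splits glucose into pyruvate, and lactate dehydrogenase turns pyruvate into lactate so that the pathway can go on without oxygen. When oxygen is scarce, prolyl hydroxylases of the Egln family no longer mark the HIF alpha subunits for degradation, and HIF then raises glycolytic enzymes, glucose transporters and angiogenic signals such as Vegfa. In the embryonic forebrain, progenitors rely much on glycolysis while blood vessels are still growing into the neural wall.

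Each array profiled the ganglionic eminences and septum dissected from 1 female E12.5 embryo of the CD-1 strain, with 3 embryos labelled Otx2 cKO and 4 labelled Control. In the Otx2 cKO embryos a floxed Otx2 allele met RxCre, a Cre line active throughout the forebrain except a caudal dorsomedial region, the site of cortical hem and choroid plexus. The labels do not give the alleles the controls carried. The embryos came from 4 litters and the arrays from 2 slides, and litter 2 and both slides held both groups. Slide 1 held Otx2 cKO replicate 1 with Control replicates 1 and 2, and the other 4 arrays were on slide 2. Values are log2 signals relative to each array's 75th percentile, and a positive difference means a higher signal in the arrays labelled Otx2 cKO. Errors of differences are limma standard errors. A probe's value cannot be set against another probe's, so levels are compared only within a gene.

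Otx2 itself went against its label. It stood at 1.78, 2.34 and 1.77 on the arrays labelled Otx2 cKO and at 0.19, 0.55, 0.48 and 0.56 on the Control arrays, a difference of 1.52 ± 0.17 (limma, adjusted p = 0.0356). With any 1 array left out it was 1.33 to 1.62 and no longer passed (limma, adjusted p 0.056 to 0.158), and it passed in 7 of the 21 alternatives. The 3 arrays labelled Otx2 cKO were all above the 4 Control arrays, so every direction below rests on the labels alone, and Otx2 cKO and Control name arrays by label only. No source used here says whether the probe lies in the deleted part, and a probe outside it checks nothing. Of 12 subpallial markers 9 were well above background on all 7 arrays, among them Nkx2-1, Gsx2 and Gad1. Dlx1 and Dlx2 were each measured on 6 arrays, and Zic1 on Control replicate 3 alone, because the other spots were left out as outliers. These genes were well above background wherever measured, and Zic1 was not tested. Of the 11 subpallial markers tested, 9 differences were below 0, with a median of -0.068 and none called. For 4 of the 11, Dlx1, Gad1, Gad2 and Isl1, the measured arrays labelled Otx2 cKO lay below every Control array. The same held for 7.65% of all genes. Gad1 differed by -0.67 ± 0.13 (limma, adjusted p = 0.171). Ttr, the main transcript of the choroid plexus, was at the floor on all 7. Other choroid plexus markers were detected: Prlr, Clic6 and Folr1 were well above background on all 7 arrays, Kcne2 on 5 and Kl on 3.

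Across the glycolytic enzymes 9 of 16 differences were above 0 and 7 below, with a median of 0.052 beside 0.014 for all genes tested; centring each array on its median in place of the 75th percentile turned the enzymes' median to -0.046, beside -0.080 for all genes. Of all 13339 genes tested, 7105 differences were above 0 and 6234 below, and each count of signs below is to be read beside these. The enzymes' differences ran from -0.28 for Pfkl to 0.25 for Ldha. The 9 hypoxia targets had a median of 0.089, which also turned with median centring (-0.0083), and 6 of their 9 differences were above 0. The transporters had a median of 0.19, the regulators -0.11 and the 2 HIF alpha subunits -0.10. Leaving out Otx2 cKO replicate 2 took the enzymes' median to 0.0041 and that of the hypoxia targets to -0.056; the enzymes' median was 0.10 without Otx2 cKO replicate 1 and again without Control replicate 1. No member of any of the 5 groups passed the test.

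**Figure D1:**
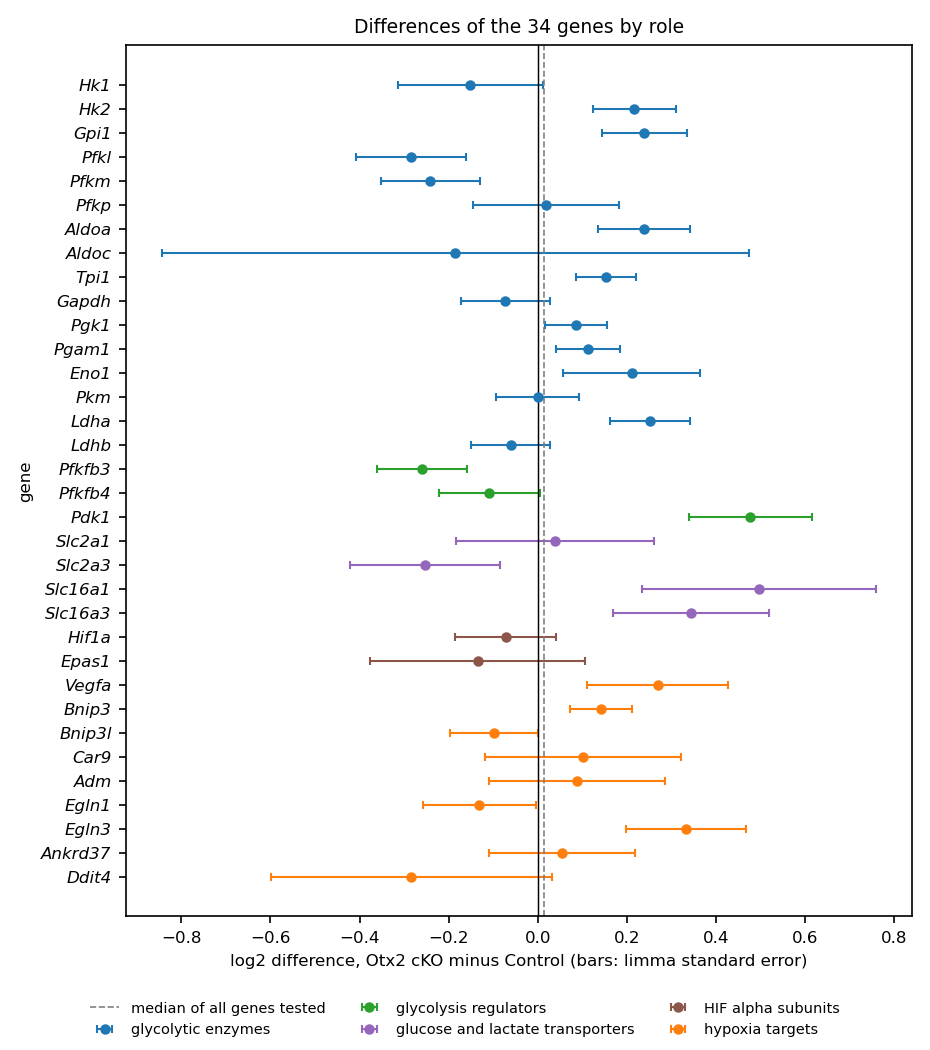
Log2 difference between the arrays labelled Otx2 cKO and the Control arrays (horizontal axis) for each of the 34 genes (vertical axis), coloured by role, with limma standard errors as bars. Most points lie within 0.30 of 0, the transporter Slc16a1 (0.50) and the regulator Pdk1 (0.48) lie furthest out, and Aldoc has the widest bar (0.66).

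At an unadjusted p under 0.05 limma marked 4 members as higher, Gpi1, Ldha, Pdk1 and Egln3, which is 11.8% of the members, beside 3.94% of all genes. It marked 1 as lower, Pfkfb3, which is 2.94% of the members beside 7.1% of all genes. A second count asked that every measured array labelled Otx2 cKO lie on one side of every measured Control array. This held on the higher side for 7 members (20.6%, beside 5.14% of all genes), namely Gpi1, Aldoa, Tpi1, Ldha, Pdk1, Slc16a1 and Bnip3. It held on the lower side for Pfkfb3 alone (2.94%, beside 7.65% of all genes). Ldha and Pfkfb3 were each measured on only 2 arrays labelled Otx2 cKO. With median centring the split of 7 and 1 became 3 and 2.

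Among the enzymes, Gpi1 turns glucose phosphate into fructose phosphate. Its signal was 5.79, 5.93 and 5.91 on the arrays labelled Otx2 cKO and 5.46, 5.68, 5.65 and 5.77 on the Control arrays. The groups did not overlap, but the lowest Otx2 cKO array stood only just above the highest Control array. The difference was 0.24 ± 0.095, or 1.18-fold (limma, adjusted p = 0.435), and within the slides it was 0.23 and 0.21.

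Aldolase A, encoded by Aldoa, splits the hexose into triose phosphates. It measured 6.45, 6.61 and 6.46 on the arrays labelled Otx2 cKO, against 6.10, 6.41, 6.37 and 6.19 on the Control arrays, again without overlap. Its difference was 0.24 ± 0.10 (limma, adjusted p = 0.46), and its second probe gave 0.22. Within litter 2, with 2 embryos of each group, the difference was 0.065.

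Tpi1, the triose phosphate isomerase, read 5.57, 5.58 and 5.54 on the arrays labelled Otx2 cKO and 5.45, 5.44, 5.41 and 5.35 on the Control arrays. Both groups were tight and did not overlap, and the difference was small, 0.15 ± 0.067 (limma, adjusted p = 0.461). It was 0.13 within slide 1, 0.19 within slide 2 and 0.13 within litter 2.

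Ldha encodes the lactate dehydrogenase subunit that favours lactate formation. Its brightest probe was measured on 2 arrays labelled Otx2 cKO, replicates 1 and 3, because the spot of replicate 2 was flagged as an outlier and left out of the fit. The 2 values were 5.86 and 5.84, and the Control arrays gave 5.62, 5.63, 5.48 and 5.65. The measured arrays did not overlap and differed by 0.25 ± 0.090, or 1.19-fold (limma, adjusted p = 0.405). The second Ldha probe did not show it: its values of 4.85, 4.98 and 4.66 on the arrays labelled Otx2 cKO overlapped those of the Control arrays, with a difference of -0.0039. Averaged over both probes on the 6 arrays that measured both, the difference was 0.087.

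Hk2, the hexokinase that responds to HIF, missed separation by little. It read 0.93, 1.07 and 1.09 on the arrays labelled Otx2 cKO and 0.69, 0.75, 0.94 and 0.88 on the Control arrays, so that Otx2 cKO replicate 1 lay just below Control replicate 3. The difference was 0.22 ± 0.094 (limma, adjusted p = 0.46). Hk1, the constitutive hexokinase of brain, differed by -0.15 ± 0.16 on its brightest probe. Of its 4 other probes 3 had differences above 0 (0.12, 0.24 and 0.17), and the fourth was at background on all arrays.

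Phosphofructokinase commits sugar to glycolysis and has 3 subunit genes. Pfkl differed by -0.28 ± 0.12 and Pfkm, with Control replicate 2 left out as an outlier spot, by -0.24 ± 0.11 (limma, adjusted p = 0.461 and 0.503). Pfkp, at 0.018 ± 0.16, had no clear direction, and its sign turned with median centring (-0.080). A second Pfkp probe gave 0.16. The Otx2 cKO arrays overlapped the Control arrays for all 3 genes.

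Of the enzymes that handle the later steps, Gapdh differed by -0.073 ± 0.10, Pgk1 by 0.086 ± 0.070, Pgam1 by 0.11 ± 0.071 and Eno1 by 0.21 ± 0.15. A second Pgk1 probe, well above background on 5 arrays, gave 0.23. The pyruvate kinase gene Pkm had the same mean in both groups, 4.55 ± 0.15 on the arrays labelled Otx2 cKO (SD, n = 3) and 4.55 ± 0.059 on the Control arrays (SD, n = 4). Ldhb, the other lactate dehydrogenase subunit, differed by -0.061 ± 0.088. None of these was separated between the groups. Gapdh, Eno1 and other glycolytic genes have processed pseudogenes in the mouse genome, and cross-hybridisation of their probes was not tested.

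Aldoc, the brain aldolase, spread most of all members. It stood at 2.27, 2.31 and 0.017 on the arrays labelled Otx2 cKO and at 2.73, 1.16, 1.19 and 1.78 on the Control arrays, so the groups overlapped, with Otx2 cKO replicate 3 far below every other array. The difference of -0.18 ± 0.66 (limma, adjusted p = 0.942) became 0.57 without that array and 0.15 without Control replicate 1.

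**Figure D2:**
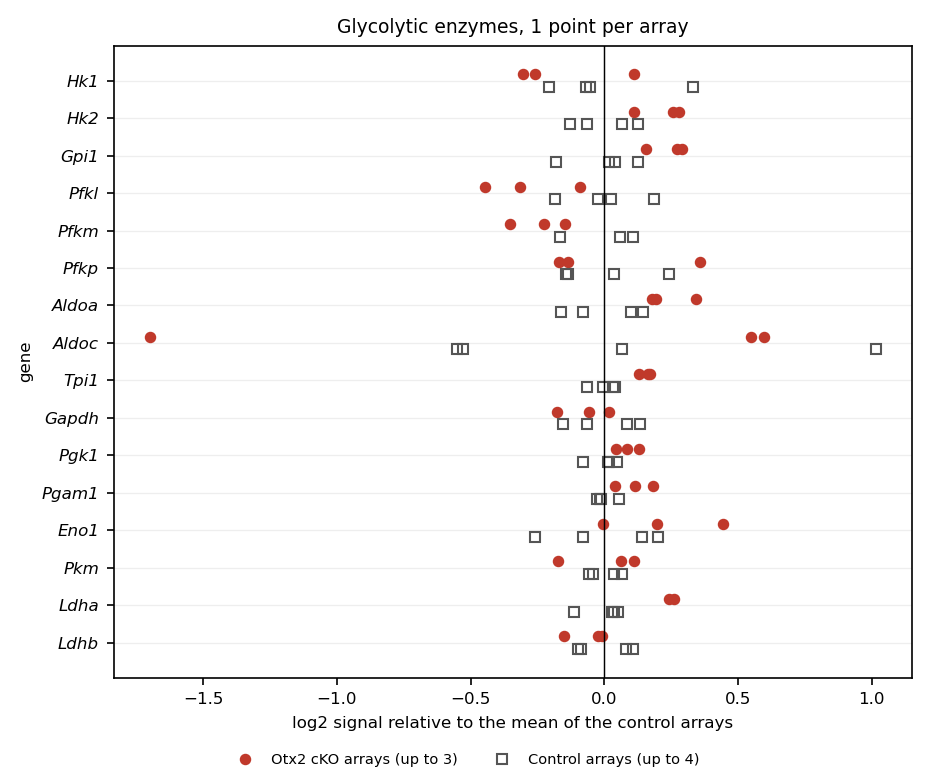
Log2 signal of the 16 glycolytic enzymes on each array relative to the mean of the Control arrays (horizontal axis), 1 gene per line, with filled circles for arrays labelled Otx2 cKO and open squares for Control arrays. The circles of Gpi1, Aldoa, Tpi1 and Ldha lie to the right of every square, and those of Aldoc span more than any other gene.

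The 3 regulators had differences of unlike sign. Pdk1 encodes a kinase that inhibits pyruvate dehydrogenase and so keeps pyruvate out of the mitochondrial cycle; it is a HIF target. It read -1.51, -1.04 and -1.27 on the arrays labelled Otx2 cKO and -1.78, -1.79, -1.90 and -1.53 on the Control arrays. All 3 Otx2 cKO arrays lay above all 4 Control arrays, with replicate 1 and Control replicate 4 nearly touching. The difference was 0.48 ± 0.14, or 1.39-fold (limma, adjusted p = 0.299), the smallest adjusted p of the 34 members. It was 0.28 within slide 1, 0.56 within slide 2 and 0.45 within litter 2.

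Pfkfb3 makes the fructose bisphosphate that activates phosphofructokinase. Otx2 cKO replicate 1 was left out as an outlier spot, and the other Otx2 cKO arrays gave 2.05 and 2.05, against 2.44, 2.30, 2.30 and 2.18 on the Control arrays. The measured values did not overlap and differed by -0.26 ± 0.10 (limma, adjusted p = 0.441). Both measured Otx2 cKO arrays were on slide 2, while slide 1 gave Control values only. Within slide 2 the difference was -0.19. Its 2 other probes gave 0.11 and -0.31. Pfkfb4, of the same family, differed by -0.11 ± 0.11, with overlapping groups.

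The lactate and pyruvate transporter Slc16a1 (MCT1) had the largest difference of the members. It was nearly constant on the arrays labelled Otx2 cKO, at 1.51, 1.50 and 1.49, and stood at 0.25, 1.26, 1.18 and 1.33 on the Control arrays. The groups did not overlap, and Control replicate 1 was far below the other controls. The difference was 0.50 ± 0.26 (limma, adjusted p = 0.544), was 0.25 without that array, and was 0.75 within slide 1, which holds it, and 0.24 within slide 2. The 2 other probes gave 0.38 and 0.72.

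Slc16a3 (MCT4), the lactate exporter, differed by 0.34 ± 0.18 without Otx2 cKO replicate 2, whose spot was flagged. The glucose transporters differed by 0.040 ± 0.22 for Slc2a1, measured on 2 Otx2 cKO and 3 Control arrays, and by -0.25 ± 0.17 for Slc2a3. The groups overlapped for these 3 genes.

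Hif1a, the widely expressed HIF alpha subunit, differed by -0.072 ± 0.11 on 2 Otx2 cKO and 3 Control arrays. Its protein is regulated by degradation, which transcript arrays do not measure. Epas1 encodes HIF-2 alpha, a subunit enriched in endothelial cells. It read 1.71, 2.29 and 1.39 on the arrays labelled Otx2 cKO and 2.20, 1.55, 1.98 and 2.00 on the Control arrays. The groups overlapped, and the difference was -0.14 ± 0.24 (limma, adjusted p = 0.879).

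The arrays with the lowest Epas1 were also those with the lowest endothelial markers. Relative to the Control mean, the median of 11 endothelial markers measured on every array was -0.39, 0.63 and -0.63 on the arrays labelled Otx2 cKO and 0.088, -0.39, 0.15 and 0.22 on the Control arrays. The median of 10 mesenchyme and pericyte markers was -1.09, 1.72 and -0.82 on the arrays labelled Otx2 cKO and 0.35, -1.53, 0.39 and 0.74 on the Control arrays. Otx2 cKO replicate 1, replicate 3 and Control replicate 2 were low in Epas1 and in both lists, and Otx2 cKO replicate 2 was high in all 3. These low arrays were of litter 2, as was Control replicate 3, which was not low. The pattern was not particular to vessels. The median of 9 microglia and macrophage markers was -0.19, 0.62 and -0.38 on the arrays labelled Otx2 cKO. On the Control arrays that median was 0.18, -0.33, 0.021 and 0.12. None of the 12 endothelial markers was called, with 4 differences above 0 and 8 below, and Pecam1 and Cdh5 were well above background on all 7 arrays. The mesenchymal Dcn was well above background on the 5 arrays that measured it, and Lum was at the floor on Otx2 cKO replicate 1 and Control replicate 2. The part of vessel content, of other non-neural cells or of litter in the Epas1 values was not tested. In pieces of tissue, fewer cells of a type and less RNA per cell cannot be told apart.

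**Figure D3:**
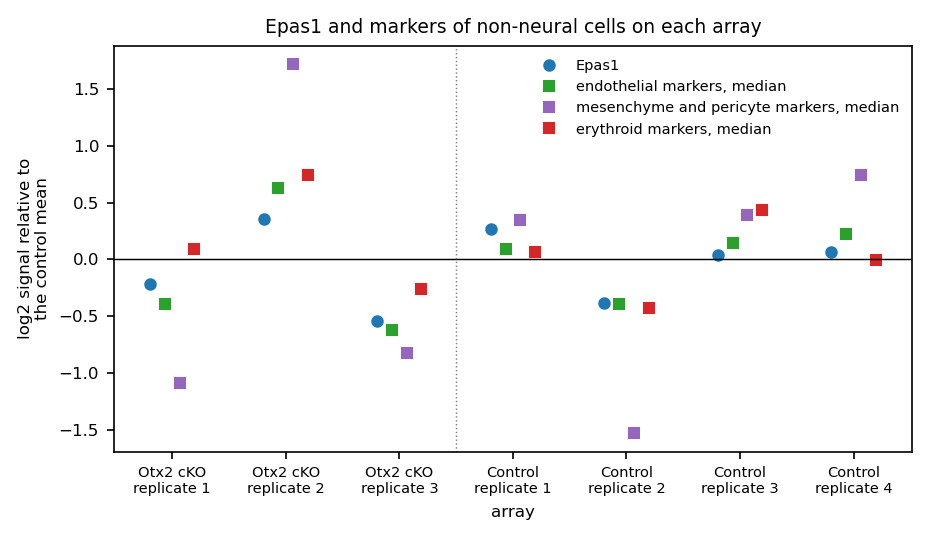
Log2 signal relative to the mean of the Control arrays (vertical axis) on each of the 7 arrays (horizontal axis) for Epas1 and for the medians of endothelial, mesenchyme and pericyte, and erythroid markers. Epas1 and the endothelial and mesenchymal medians are all below 0 on Otx2 cKO replicates 1 and 3 and Control replicate 2, and above 0 on the other 4 arrays.

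The hypoxia targets differ in what they encode, and 4 of them varied most from array to array: Ddit4, an inhibitor of mTORC1 signalling, Car9, a membrane carbonic anhydrase, Adm, the vasodilator peptide adrenomedullin, and Vegfa, the vascular growth factor. Their promoters are shown because these genes are known as targets of HIF, which binds the core letters ACGTG or GCGTG. Each window is the first listed for the gene in RefSeq's annotation of GRCm38.p6, from 250 bases before to 50 bases after the transcription start, written 5′ to 3′ on the gene's strand. Capitals mark ACGTG or GCGTG on either strand, which read CACGT or CACGC where the letters lie on the other strand. The windows are chr10:59951721-59952020 on the minus strand for Ddit4, chr4:43506776-43507075 on the plus strand for Car9, chr7:110627407-110627706 on the plus strand for Adm and chr17:46032328-46032627 on the minus strand for Vegfa.
Ddit4: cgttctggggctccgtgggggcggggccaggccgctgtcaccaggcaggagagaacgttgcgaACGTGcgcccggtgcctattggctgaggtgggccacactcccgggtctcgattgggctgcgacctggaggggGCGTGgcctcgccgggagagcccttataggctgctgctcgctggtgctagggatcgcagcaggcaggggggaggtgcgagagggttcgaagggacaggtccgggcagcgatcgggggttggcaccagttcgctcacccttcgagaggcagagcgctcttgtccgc
Car9: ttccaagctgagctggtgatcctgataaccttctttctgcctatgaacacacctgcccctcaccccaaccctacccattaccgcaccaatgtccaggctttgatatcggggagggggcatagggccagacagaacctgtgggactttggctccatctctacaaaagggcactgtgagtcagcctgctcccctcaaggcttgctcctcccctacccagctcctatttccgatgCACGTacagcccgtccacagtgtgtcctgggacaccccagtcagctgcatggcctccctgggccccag
Adm: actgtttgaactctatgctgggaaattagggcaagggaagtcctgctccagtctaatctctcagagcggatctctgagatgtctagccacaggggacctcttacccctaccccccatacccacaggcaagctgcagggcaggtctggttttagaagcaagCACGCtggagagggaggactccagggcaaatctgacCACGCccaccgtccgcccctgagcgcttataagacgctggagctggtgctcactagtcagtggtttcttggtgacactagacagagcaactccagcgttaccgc
Vegfa: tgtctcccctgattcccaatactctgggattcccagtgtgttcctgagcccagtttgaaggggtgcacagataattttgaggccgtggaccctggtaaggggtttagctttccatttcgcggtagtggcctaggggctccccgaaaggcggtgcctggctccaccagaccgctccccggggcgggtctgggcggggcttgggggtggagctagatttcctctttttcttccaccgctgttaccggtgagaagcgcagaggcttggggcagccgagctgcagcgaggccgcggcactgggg

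The Ddit4 window held ACGTG starting 187 bases and GCGTG 115 bases before the transcription start. Car9 had ACGTG 18 bases before the start on the other strand, and Adm had GCGTG at 90 and 54 bases before the start on the other strand. The first Vegfa window held neither; the gene has 2 windows in the table. Of the 34 members 31 had an entry, and 25 of these 31 windows (80.6%) held at least 1 of the motifs, beside 43.8% of all 27025 promoters of the table. The share was 87.5% for 8 hypoxia targets and 68.8% for the 16 glycolytic enzymes. ACGTG was in 58.1% of the members' windows and 19.7% of all, and GCGTG in 54.8% of the members' windows and 32.5% of all. The 2 motifs can lie in the same window but do not overlap each other in these 4 windows, base composition was not matched, and a match describes letters, not a bound site. The members were listed as genes of glycolysis and the hypoxia pathway, so their share is not independent of that choice.

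Ddit4 stood at 4.28, 3.71 and 4.08 on the arrays labelled Otx2 cKO and at 3.98, 4.08, 5.16 and 4.01 on the Control arrays. Otx2 cKO replicate 2 was the lowest array and Control replicate 3 stood far above the rest, while the other values overlapped. The difference was -0.28 ± 0.32 (limma, adjusted p = 0.785), and without that array it was -0.00016.

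Vegfa gave 1.84, 2.42 and 2.14 on the arrays labelled Otx2 cKO and 1.74, 1.73, 2.08 and 1.91 on the Control arrays. Otx2 cKO replicates 2 and 3 were the highest, while replicate 1 lay inside the Control range, so the groups overlapped. The difference was 0.27 ± 0.16, or 1.21-fold (limma, adjusted p = 0.587). A second of its 4 probes read -1.02, -0.68 and -1.03 on the arrays labelled Otx2 cKO and -1.43, -1.36, -1.28 and -1.37 on the Control arrays. On that probe the groups did not overlap and differed by 0.45. The other 2 probes gave 0.30 and 0.78, the last of them well above background on 4 arrays only.

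Car9 read -3.08, -2.37 and -2.60 on the arrays labelled Otx2 cKO and -3.12, -2.81, -2.40 and -2.80 on the Control arrays. Adm read -3.34, -2.75 and -3.06 on the arrays labelled Otx2 cKO and -3.39, -3.35, -2.79 and -3.02 on the Control arrays. Both genes overlapped between the groups, with differences of 0.10 ± 0.22 and 0.089 ± 0.20 (limma, adjusted p = 0.902 and 0.903). Bnip3, which marks mitochondria for removal, was tighter. Its values of 1.87, 1.87 and 1.85 on the arrays labelled Otx2 cKO lay above the 1.80, 1.73, 1.67 and 1.69 of the Control arrays. The groups did not overlap, and the difference was 0.14 ± 0.069, or 1.10-fold (limma, adjusted p = 0.509). Its relative Bnip3l differed by -0.098 ± 0.099. A second Bnip3l probe, well above background on all 7 arrays, gave 0.18.

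The oxygen sensors of the Egln family, which are also HIF targets, gave -0.13 ± 0.13 for Egln1 and 0.33 ± 0.14 for Egln3 (limma, adjusted p = 0.749 and 0.442). A second Egln1 probe, well above background on all 7 arrays, gave 0.043. For Egln3, Otx2 cKO replicates 1 and 2 (-1.40 and -1.44) were above all Control arrays, and replicate 3 (-1.86) lay within the Control range of -2.02 to -1.79. Ankrd37, an ankyrin repeat gene induced by HIF, differed by 0.054 ± 0.16.

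**Figure D4:**
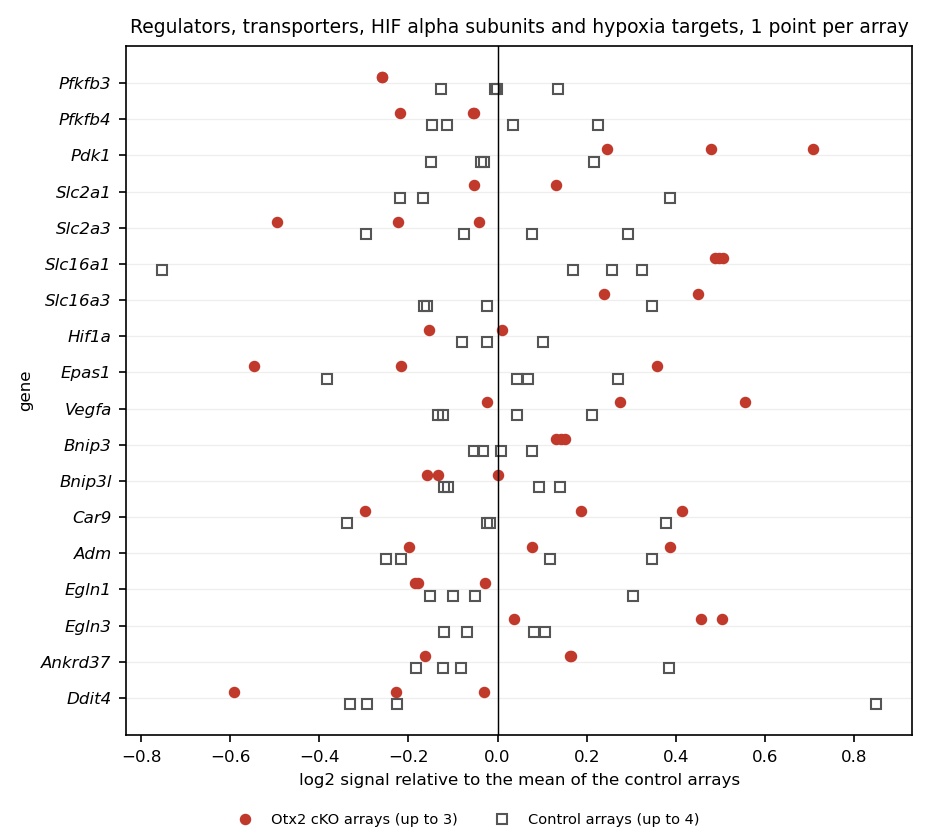
Log2 signal of the 3 regulators, 4 transporters, 2 HIF alpha subunits and 9 hypoxia targets on each array relative to the mean of the Control arrays (horizontal axis), 1 gene per line, with filled circles for arrays labelled Otx2 cKO and open squares for Control arrays. Pdk1, Slc16a1 and Bnip3 have every circle to the right of every square, Pfkfb3 has its 2 circles to the left, and single squares stand apart for Slc16a1 and Ddit4.

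Several members were separated by slide, as were many genes of the array. All slide 1 arrays were below all slide 2 arrays for 7 members (20.6%, beside 12.7% of all genes), namely Pkm, Ldhb, Pfkfb4, Slc2a1, Vegfa, Car9 and Adm. They were above them for 3 members (8.82%, beside 4.07% of all genes), Hk1, Pfkfb3 and Egln1; for Slc2a1 and Pfkfb3 this covers the arrays measured. Vegfa was at 1.84 for Otx2 cKO and 1.74 and 1.73 for Control on slide 1, against 2.42 and 2.14 for Otx2 cKO and 2.08 and 1.91 for Control on slide 2. For Car9 the slides were apart by only the last digits, Control replicate 2 at -2.81 on slide 1 and Control replicate 4 at -2.80 on slide 2.

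Within slide 1 the Vegfa difference was 0.11 and within slide 2 0.29, with 0.21 when slide was a block and 0.087 within litter 2. Car9 differed by -0.12 within slide 1 and 0.12 within slide 2, and Adm by 0.035 and -0.00038. The part of the slide in these values was not tested beyond these splits, and slide 1 has only 1 array labelled Otx2 cKO.

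**Figure D5:**
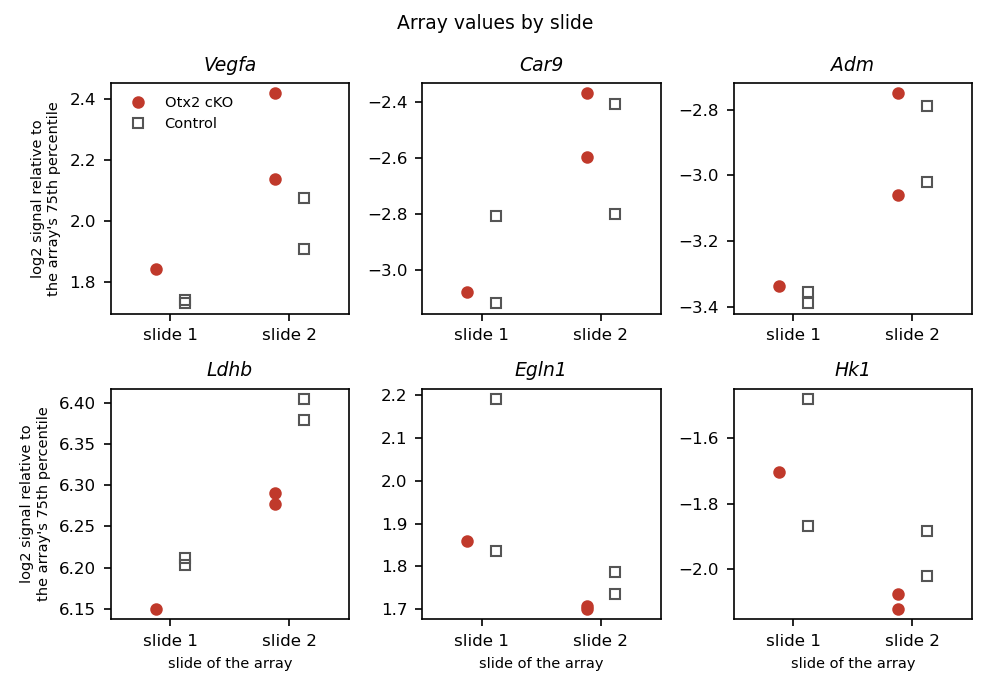
Log2 signal relative to the array's 75th percentile (vertical axes) of Vegfa, Car9, Adm, Ldhb, Egln1 and Hk1 on the arrays of slide 1 and slide 2 (horizontal axes), with filled circles for Otx2 cKO and open squares for Control. Vegfa, Car9, Adm and Ldhb are lower on all 3 arrays of slide 1, and Egln1 and Hk1 higher, whichever the group.

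Wider lists of the same pathways held no called gene either. Of 29 other glycolysis genes tested, 11 differences were above 0 and 18 below (median -0.071), and limma's unadjusted p was under 0.05 for 3 genes, all of them lower (beside 7.1% of all genes lower). Eno2, the neuronal enolase, read 0.62, 0.32 and 0.22 on the arrays labelled Otx2 cKO and 1.27, 0.97, 1.11 and 0.77 on the Control arrays. These groups did not overlap and differed by -0.64 ± 0.15 (limma, adjusted p = 0.254). The pyruvate dehydrogenase kinases Pdk4 and Pdk2 differed by -0.33 ± 0.087 and -0.37 ± 0.13 (limma, adjusted p = 0.283 and 0.369), opposite in sign to Pdk1.

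Pan-neuronal markers lay on the same side as Eno2: 8 of 10 differences were below 0, with a median of -0.13 and none called. The neural progenitor list had 10 of 12 above 0 with a median of 0.17, again with none called. The part of either list in the values of the glycolysis genes was not tested.

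Among 12 other HIF pathway genes tested, 6 differences were on each side of 0 (median -0.0072), and that p was under 0.05 for 2 genes, both lower (beside 7.1% of all genes lower). Cited2, a HIF-induced inhibitor of HIF activity, differed by -0.38 ± 0.10, the hydroxylase Egln2 by -0.22 ± 0.075 and the HIF partner Arnt2 by -0.21 ± 0.11 (limma, adjusted p = 0.282, 0.37 and 0.518). For these 3 of the 12 the arrays labelled Otx2 cKO lay below every Control array, as for 7.65% of all genes. For Arnt2 the groups nearly touched, with Otx2 cKO replicate 3 at 1.620 and Control replicate 4 at 1.622.

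Among 26 other hypoxia targets tested, 11 differences were above 0 and 15 below (median -0.050), and that p was under 0.05 for 2 higher and 2 lower genes (beside 3.94% of all genes higher and 7.1% lower). Ak4, a mitochondrial adenylate kinase, read -2.41, -2.46 and -2.57 on the arrays labelled Otx2 cKO and -2.78, -3.15, -3.11 and -3.11 on the Control arrays. The groups did not overlap, and the difference of 0.56 ± 0.11 did not pass the test (limma, adjusted p = 0.199). Ndrg1 had a difference of the opposite sign, with -0.46, -1.12 and -1.25 on the arrays labelled Otx2 cKO and 0.92, -0.035, 0.13 and -0.11 on the Control arrays. It differed by -1.17 ± 0.30, or 2.25-fold (limma, adjusted p = 0.277), without overlap. Gbe1, the glycogen branching enzyme, differed by 0.33 ± 0.088 (limma, adjusted p = 0.287).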

How the data were processed

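RNA of 1 embryo per array was amplified with a Cy3 label and hybridised, per the labels' protocols, to 1-colour Agilent whole mouse genome arrays. The authors deposited each array's scanner intensity, background-subtracted and detrended within the array by Agilent Feature Extraction, per the file headers, with no normalization between arrays. A table of log2 values that the authors deposited served as an alternative; its columns follow the order of the median spot signal (rank correlation 1.00, column medians 7.61 to 7.64) and no source used here states its scaling.

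Control spots and outlier-flagged spots (1.24% to 2.51% per array) were left out, spots of a probe were averaged, and the processed intensity was set relative to its array's 75th percentile, floored at a log2 value of -7.45 and taken to log2. No spot was saturated, and 68.4% to 72.2% of spots were well above background per array. Probe accessions were matched to a RefSeq gene table of GRCm38.p6: of 41174 probes 24844 had 1 symbol, 0 several and 16330 none. A gene was read from its brightest probe, and tested where 3 or more of 7 arrays had it well above background and it was measured on at least 2 arrays of each group. Of the 34 members 23 had 1 probe and 11 had several, 52 in all.

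The main test was limma 3.58.1 (lmFit, eBayes; R 4.3.3) with group alone in the model and the Benjamini-Hochberg adjustment taken over 13339 genes at a threshold of 0.05. The number of arrays limits the precision, and the median standard error of a log2 difference was 0.13. The fit was tested on simulated data with changes larger than any member's difference. That test does not bear on whether changes of the members' size would be called. Tables were made in Python 3.11.15 with pandas 2.3.3. Alternatives changed scaling, background correction, source of values, outlier flags, probe choice, background filter, slide, litter and replicate number, or left out 1 array. A mean of a gene's probes that leaves out arrays with a missing probe was added after seeing the data. The normexp alternative used the median spot signal, since the files hold no mean signal. Replicate numbers do not pair the arrays: deviations of same-numbered arrays from their group means correlated at 0.11, -0.53 and 0.026.

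The members and lists were chosen with earlier results of these data known, and no list was tested as a set. Genes named beyond the members are Otx2 and, from each wider list, every gene past the threshold or otherwise the 3 with the smallest unadjusted p; 1 gene that this rule names is not reported here. Values on every array are given for members with separated groups and the 3 with the largest spread; those of Hk2, Epas1, Vegfa, Car9, Adm and Egln3 were added after their values were seen.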

Additional observations from a re-analysis of the deposited data

Results flagged for a closer look

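Some genes had 1 Control array far from the other 3, with a gap to its nearest neighbour above Dixon's critical share of the range of the 4 Control arrays. Of 43 genes with a value on all 4 Control arrays that were examined, 4 met this, and chance flags about 1 in 20 groups. Ldha stood at 5.48 on Control replicate 3. Slc16a1 stood at 0.25 on Control replicate 1. Ddit4 stood at 5.16 on Control replicate 3. Ak4 stood at -2.78 on Control replicate 1.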

How the results depend on the processing

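No member was called under any of the 21 alternatives; the smallest adjusted p was 0.178 (limma). Of the 34 members 28 had a value in all 21 and the others in at least 18, and 20 members kept their direction in every alternative that gave them a value. The count of all genes called, 28, was 42 with normexp and quantile normalization, 41 with the authors' value table, 15 with no filter on dim probes, 16 with the slide block, 0 for slide 1 or slide 2 alone, 0 for litter 2 alone or the litter block, 0 with the replicate block, and 0 to 25 with 1 array left out. The enzymes' median of 0.052 was -0.046 with median centring, 0.10 within slide 1, 0.10 within slide 2 and 0.0041 to 0.10 with 1 array left out. The hypoxia targets' median of 0.089 was -0.0083 with median centring, -0.0028 with normexp and quantile normalization, -0.016 with the authors' value table, 0.014 with the slide block, -0.13 within litter 2 and with litter as a block, and -0.056 to 0.18 with 1 array left out. Separated members, 7 higher and 1 lower, were 3 and 2 with median centring, 8 and 2 with normexp and quantile normalization, 5 and 0 with the mean of the gene's probes, and 6 and 0 when that mean left out arrays with a missing probe, an alternative chosen after seeing the data.

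The other direction was given by median centring for Pfkp (-0.080), Pgk1 (-0.011), Slc2a1 (-0.0073), Adm (-0.0083) and Ankrd37 (-0.043). Normexp with quantile normalization turned Pfkp (-0.019), Car9 (-0.026), Adm (-0.0017) and Ankrd37 (-0.0028). The authors' value table turned Pfkp (-0.025), Hif1a (0.016), Car9 (-0.026), Adm (-0.016) and Ankrd37 (-0.0021). The mean of the gene's probes turned Hk1 (0.052) and Bnip3l (0.041), with or without arrays that lack a probe. For Ldha it gave -0.021 only because Otx2 cKO replicate 2 then held the dimmer probe alone; without that array it was 0.087. Pfkfb3, likewise short of its brightest probe on Otx2 cKO replicate 1, gave -0.94 and, without that array, -0.18. Slide 1 alone turned Pfkp (-0.22), Aldoc (0.32), Car9 (-0.12), Ankrd37 (-0.031) and Ddit4 (0.25). Slide 2 alone turned Pkm (0.036) and Adm (-0.00038), and slide as a block Slc2a1 (-0.029). Litter 2 alone and litter as a block, which rest on the same 4 arrays, turned Pfkp (-0.013), Hif1a (0.0069), Car9 (-0.23), Adm (-0.13) and Ankrd37 (-0.15). The replicate block turned Pkm (0.012). With 1 array left out the ranges crossed 0 for Pfkp (-0.15 to 0.11), Aldoc (-0.57 to 0.57), Pkm (-0.056 to 0.086), Slc2a1 (-0.070 to 0.23), Hif1a (-0.15 to 0.0090), Epas1 (-0.38 to 0.070), Car9 (-0.056 to 0.30), Adm (-0.060 to 0.23) and Ankrd37 (-0.0063 to 0.18). The cause of the turns other than that of Ldha was not tested.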

Other observations

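Genes of the mitochondrial tricarboxylic acid cycle, which takes up the pyruvate that is not made into lactate, gave no call among 15 tested of 17. Their differences were above 0 for 11 genes and below 0 for 4, with a median of 0.054, and 0 passed an unadjusted p of 0.05 (limma). The succinate dehydrogenase subunits Sdhb and Sdha differed by 0.20 ± 0.11 and 0.15 ± 0.088 (limma, adjusted p = 0.575 and 0.587), Sdhb on 2 arrays labelled Otx2 cKO and 3 Control arrays.

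Markers of red blood cells, whose precursors depend on hypoxia signalling through erythropoietin, had differences above 0 for 10 of 10 genes, with a median of 0.22. The median of the list on each array was 0.093, 0.74 and -0.26 on the arrays labelled Otx2 cKO and 0.068, -0.42, 0.44 and -0.0037 on the Control arrays, so the groups overlapped, and no marker was called.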
